A study of Drosophila melanogaster with 2 samples.

Results

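The 73 nuclear genes of the mitochondrial ribosome were examined for binding of Gcm (glial cells missing), the DNA-binding regulator that switches neural precursors of the fly embryo to glia and also acts in its blood cells. They were the protein-coding genes, of 13945 on the 6 main arms, whose annotated symbol begins with mRpL or mRpS followed by a digit. Of these, 47 carry a large-subunit symbol (mRpL) and 26 a small-subunit symbol (mRpS). Large and small subunit are used below in this sense, by symbol alone, and the place of each protein in the ribosome was not checked. A gene was counted as bound when a peak summit lay within 500 bp of any of its annotated transcription start sites.

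Binding had been measured by chromatin immunoprecipitation and sequencing (ChIP-seq) in whole embryos of mixed sex, collected 0 to 16 hours after laying, from a stable line that expresses Gcm with a C-terminal GFP tag and was precipitated through the tag. Both samples, biological replicates 1 and 3, carried this genotype and the same donor label, so they form 1 group with no untagged or untreated group to set them against. Each value is an average over all cells of the embryo, and the cells in which a site was occupied are not known. Each replicate had its own list of 30000 peaks, a pooled list of 30000 had been called on both, and a list thresholded on the irreproducible discovery rate (IDR), a measure of how well peak ranks repeat, held 5707. The IDR peaks were the 5707 strongest of the pooled list, with a signal from 190.5 to 5118 and a median of 299, so the same number of strongest peaks was also taken from each replicate.

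The mitochondrial ribosome translates the handful of respiratory chain proteins encoded by mitochondrial DNA. Its ribosomal RNAs come from that DNA, while its proteins are encoded in the nucleus, made in the cytoplasm and imported. Some of these proteins have counterparts in the bacterial ribosome and others are found in mitochondria alone. Their genes are generally active across cell types.

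Sequences around the summits show what lay under the peaks. The 4 strongest mRp peaks outside the right arm of chromosome 2 are followed by the strongest with the DRE word (that with the Gcm word being among the 4), and by 1 gene with no summit in any list, centred on its annotated start. Each is 201 bases of the Release 6 genome on the gene's own strand, and capitals mark the words searched for (Gcm, DRE, M1BP, GAGA, E-box, ETS, NRF-1/Ewg, TATA and GATA). The first and second hold no such word, and the one at mRpL20 holds the Gcm consensus as ATGCGGGC.
mRpS10 (chr3R:15229435-15229635, plus strand): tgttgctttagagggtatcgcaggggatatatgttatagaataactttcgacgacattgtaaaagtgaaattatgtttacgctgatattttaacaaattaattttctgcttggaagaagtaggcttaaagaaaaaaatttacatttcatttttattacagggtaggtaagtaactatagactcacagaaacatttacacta
mRpS23 (chr2L:13835360-13835560, minus strand): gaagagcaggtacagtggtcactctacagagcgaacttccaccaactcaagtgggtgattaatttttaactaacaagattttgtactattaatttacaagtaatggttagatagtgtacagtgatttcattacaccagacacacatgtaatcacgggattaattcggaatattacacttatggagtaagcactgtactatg
mRpL23 (chr3L:2373522-2373722, minus strand): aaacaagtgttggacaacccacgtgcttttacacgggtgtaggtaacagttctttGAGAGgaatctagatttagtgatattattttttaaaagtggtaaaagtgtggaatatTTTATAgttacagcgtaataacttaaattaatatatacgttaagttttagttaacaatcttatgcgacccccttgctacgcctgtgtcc
mRpL20 (chr3L:13018011-13018211, minus strand): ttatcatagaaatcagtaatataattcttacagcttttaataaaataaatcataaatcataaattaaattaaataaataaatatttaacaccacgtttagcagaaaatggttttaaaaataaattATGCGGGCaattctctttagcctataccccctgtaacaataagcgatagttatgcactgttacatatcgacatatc
mRpL39 (chr3L:14999684-14999884, minus strand): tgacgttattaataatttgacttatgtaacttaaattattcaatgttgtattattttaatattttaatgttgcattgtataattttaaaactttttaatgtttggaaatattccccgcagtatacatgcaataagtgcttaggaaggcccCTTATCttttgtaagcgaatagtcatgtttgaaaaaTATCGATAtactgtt
mRpL1, no summit (chr3R:8301340-8301540, plus strand): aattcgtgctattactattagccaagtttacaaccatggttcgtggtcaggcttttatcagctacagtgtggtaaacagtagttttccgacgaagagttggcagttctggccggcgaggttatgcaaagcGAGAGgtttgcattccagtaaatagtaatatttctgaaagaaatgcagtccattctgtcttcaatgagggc
The share of G and C in the summit windows was 29.85% at mRpS10, 36.32% at mRpS23 and 34.33% at mRpL23. It was 25.4% at mRpL20 and 25.9% at mRpL39. The window of mRpL1, which lacked a summit, had 42.8%, but it is 1 gene and is centred on a start, so the values are not like for like.

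Of the 73 mRp genes, 20 were bound in the IDR list (27.4%), against 2633 of all protein-coding genes (18.9%). In the strongest peaks of replicate 1, 24 were bound (32.9%, against 19.4% of all genes), and in those of replicate 3, 23 (31.5%, against 19.0%). The share was 32.2% ± 0.969 for mRp genes and 19.2% ± 0.332 for all genes over the replicates' own lists (SD, n = 2). In the pooled list 38 mRp genes had a summit (52.1%, against 41.4% of all genes). The whole list reached 50 mRp genes in replicate 1 (68.5%, against 44.2%) and 40 in replicate 3 (54.8%, against 42.4%). The mRp share lay above that of all genes in each list, and the list of genes was not tested for enrichment. Promoter arrangement, which differs between mRp genes and other genes, is set beside these shares further on.

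Both subunits were represented. In the IDR list 12 of 47 large-subunit genes (25.5%) and 8 of 26 small-subunit genes (30.8%) were bound. The order of the subunits was not stable between lists. The large subunit had 26 genes (55.3%) and the small subunit 12 (46.2%) in the pooled list. Replicate 3's strongest peaks reached 12 large-subunit (25.5%) and 11 small-subunit genes (42.3%), and those of replicate 1 reached 15 (31.9%) and 9 (34.6%). The number in the symbol was used as a rough guide to whether a protein has a bacterial counterpart. It put 43 genes in the class with a counterpart and 30 in the mitochondrion-specific class. Single genes may be misplaced, since the classes were not checked gene by gene. Of the 43, 13 were bound (30.2%), and of the 30, 7 (23.3%).

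**Figure D1:**
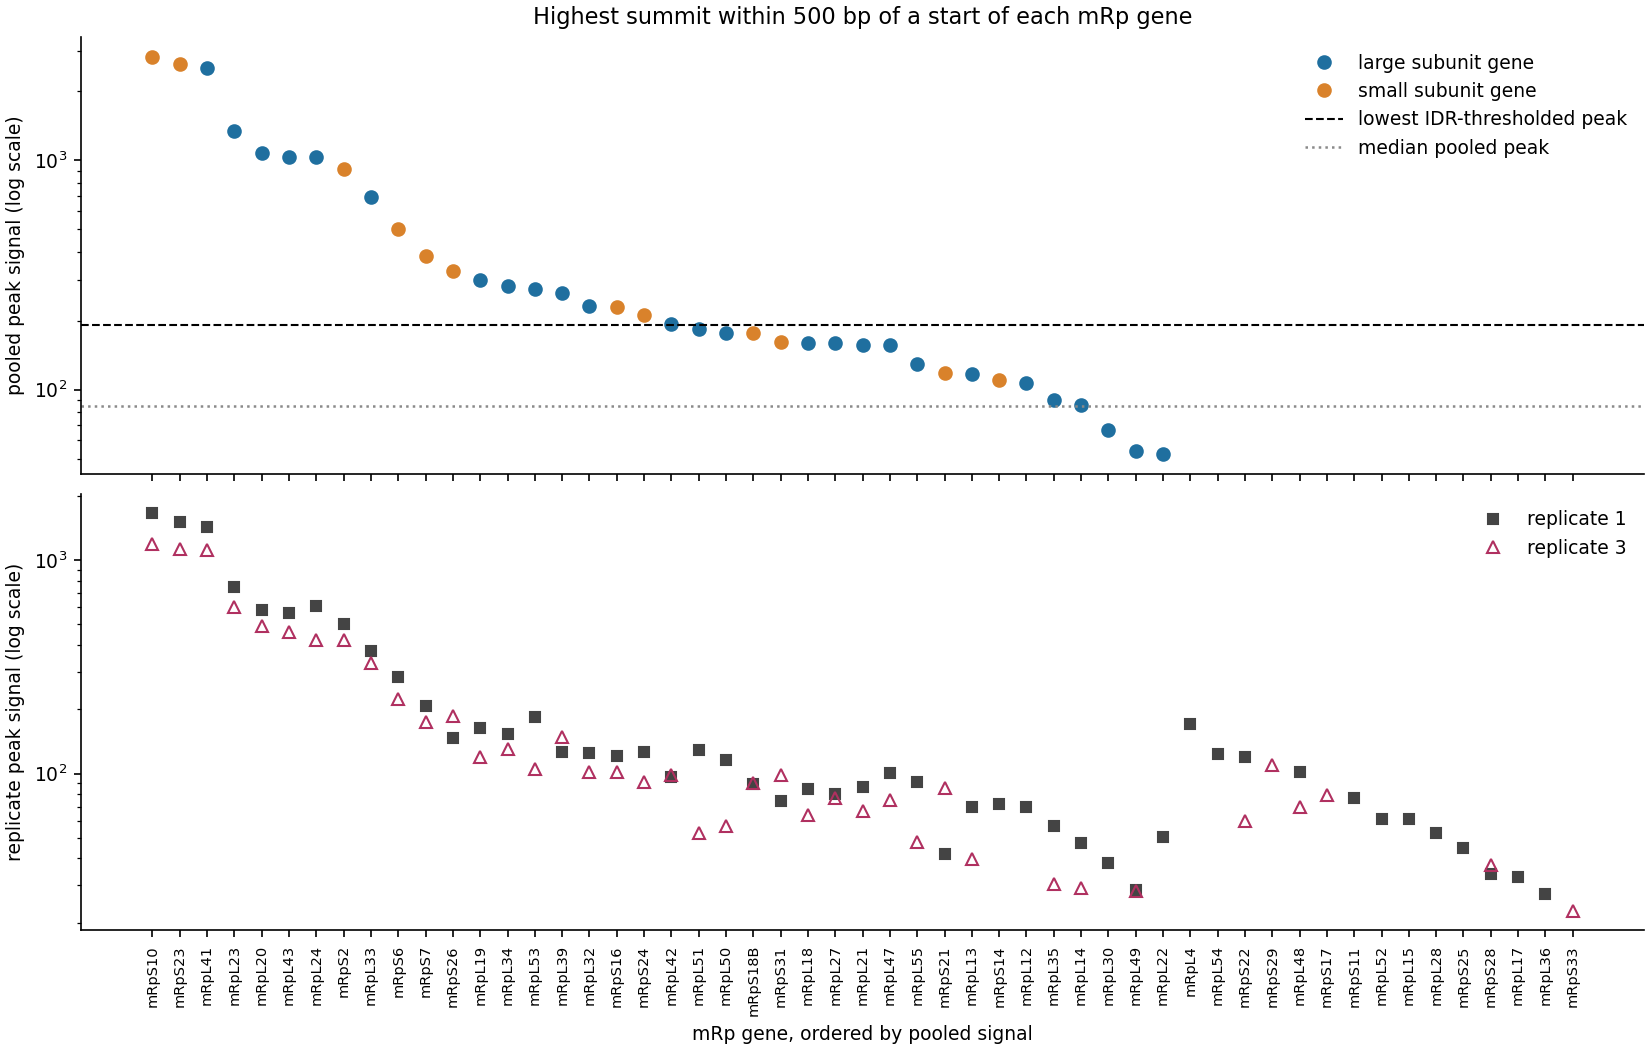
Signal of the highest summit within 500 bp of a start, for the 53 mRp genes with a summit in at least 1 list (horizontal axis, ordered by pooled signal). Upper panel: pooled list, log scale, coloured by subunit; the dashed line is the lowest IDR-thresholded signal (190.5) and the dotted line the pooled median (84.95). Lower panel: both replicates' own lists, log scale. The signal drops from 2838 at mRpS10 to 52.4 at mRpL22, and the first 3 genes stand above the rest in both replicates.

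The strongest peaks lay at 3 genes that stood apart from the rest. At mRpS10 (FBgn0038307), whose product is the counterpart of bacterial S10 in the small-subunit head, the signal was 2838, rank 8 of 5707, and it was 1654 in replicate 1 and 1190 in replicate 3, rank 9 in each. The peak at mRpS23 (FBgn0260407), a mitochondrion-specific small-subunit protein gene, reached 2627 and rank 11, with 1500 in replicate 1 (rank 10) and 1132 in replicate 3 (rank 12). The third, at mRpL41 (FBgn0034001), a mitochondrion-specific large-subunit protein gene, had 2536 and rank 13, with 1423 in replicate 1 (rank 13) and 1116 in replicate 3 (rank 14). The next mRp gene, mRpL23, was at 1350, so the 3 leaders were well apart from the other 17. Their summits moved by 3, 8 and 4 bp between the replicates. At mRpS10 and mRpS23 the start of another gene was nearer the summit, Art3 at 127 bp and CenG1A at 104 bp. Those 2 peaks therefore cannot be assigned to the mRp gene alone.

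More named large-subunit genes followed between rank 113 and 574. The peak of mRpL23, the counterpart of bacterial L23 at the exit of the peptide tunnel, had a signal of 1350 (745 in replicate 1 and 602 in replicate 3). The peak of mRpL20, counterpart of bacterial L20, had 1079 (584 and 492). At mRpL43, a mitochondrion-specific protein gene, the signal was 1038 (565 and 461). At mRpL24, counterpart of bacterial L24, it was 1032 (608 and 424), and at mRpL33, counterpart of bacterial L33, 695 (376 and 328). The small-subunit gene mRpS2, counterpart of bacterial S2, had 922 (500 and 422). Of the 20 bound genes, 8 had a peak among the strongest 570 of the list (40%, against 15.3% of all bound genes) and 13 one above its median (65%, against 57.0%).

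The remaining bound genes lay lower. Among small-subunit genes, mRpS6 had a signal of 503 at rank 1161, mRpS7 382 at rank 1891 and mRpS26 329.5 at rank 2436. The large-subunit genes mRpL19, mRpL34, mRpL53, mRpL39 and mRpL32 ran from 301 to 232. The lowest were mRpS16 (229), mRpS24 (211) and mRpL42 (194, rank 5580 of 5707). At mRpL42 the replicates gave 96.6 and 98.9, and it was the 1 bound gene outside the strongest peaks of replicate 1 (rank 6910 there). Over the 20 bound genes the median signal was 442, against 335 over all 2633 bound genes and 299 over all IDR peaks. The medians of mRp and all bound genes in the replicates' strongest peaks were 177 and 187.5 in replicate 1, and 175 and 150 in replicate 3, so the direction of this difference was not kept.

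**Figure D2:**
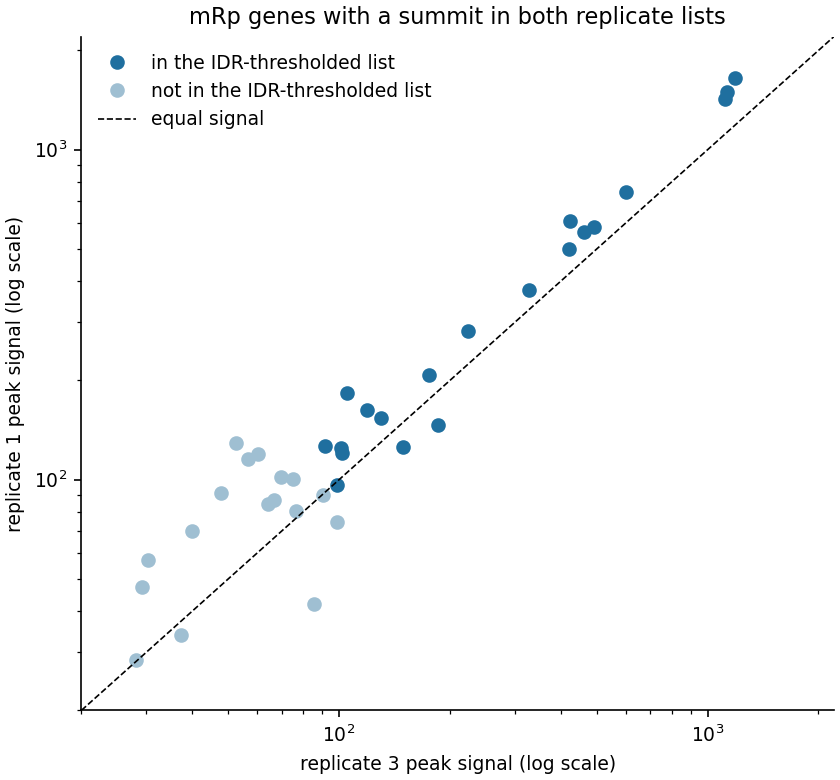
Signal in replicate 1 (vertical axis) against replicate 3 (horizontal axis), both on log scales, for the 37 mRp genes with a summit in both whole lists; each point is 1 gene and the dashed line marks equal signal. Genes of the IDR-thresholded list (dark; the others are light) run along the line, with 3 of the 20 below it, with a median ratio of replicate 1 to replicate 3 of 1.23. The signal scale differs between the lists.

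The replicates placed these peaks at nearly the same positions. All 20 IDR genes had a summit in both replicates' whole lists, and 19 of the 20 were in the strongest peaks of both. The IDR list was thresholded on how well peak ranks repeat, so these counts were largely set by the choice of list. The median shift between the replicates' summits was 23.5 bp, against 24 bp over all bound genes, and the largest, 136 bp, was at mRpS26. Signal was 1.23 times as high in replicate 1 as in replicate 3 at the median gene, against 1.27 times over all bound genes. The ratio ran from 0.787 at mRpS26 to 1.74 at mRpL53 and was below 1 at 3 genes. Signal scales differ between the replicates' lists, so a ratio away from 1 was not read as a difference in binding.

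Genes outside the IDR list could only have weaker pooled peaks, since that list holds the strongest of the pooled list. Summits of the pooled list lay at 18 further mRp genes, with signals from 183 (mRpL51, rank 6011) down to 52.4 (mRpL22) and a median of 124. Just below the lowest IDR peak came mRpL51, mRpL50 (177), mRpS18B (176), mRpS31 (162) and mRpL18 (160). Another 15 genes had a summit in a replicate's list but none in the pooled list. The strongest of these, mRpL4, had 171 in replicate 1 (rank 2829) and no summit within 500 bp in replicate 3. The gene mRpS29, whose human counterpart DAP3 is a GTP-binding small-subunit protein, had 109 in replicate 3 (rank 4182) and none in replicate 1. The gene mRpL54 had 123 in replicate 1 alone, and mRpS22 had 119.5 in replicate 1 and 60.1 in replicate 3. In all, 13 mRp genes had a summit in replicate 1's list alone and 3 in replicate 3's alone. These splits and the count of 15 were not made over all genes, of which the whole list reached 44.2% in replicate 1 and 42.4% in replicate 3. Beside the 18 stand the shares of all genes, 41.4% in the pooled list and 18.9% in the IDR list, which is a part of it.

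No list placed a summit at 20 of the 73 genes. These were mRpL1, mRpL2, mRpL3, mRpL9, mRpL10, mRpL11, mRpL16, mRpL37, mRpL38, mRpL40, mRpL44, mRpL45, mRpL46, mRpS5, mRpS9, mRpS18A, mRpS18C, mRpS30, mRpS34 and mRpS35. They include mRpL10, a protein of the ribosomal stalk, and mRpL45, whose human counterpart sits at the tunnel exit facing the inner membrane. The nearest pooled summit lay from 645 bp (mRpL2) to 1576709 bp (mRpS5) from their starts, with a median of 4022.5 bp. The mRpS5 gene (3L, 24537236 to 24543534) lies past the last pooled summit of its arm, at 22960527. Each whole list stopped at 30000 peaks, so a weaker peak at these genes would not be listed. The share of all genes with no summit in any list was not counted, so the 20 have no background beside them. The pooled list alone reached 41.4% of all genes.

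Summits lay mostly upstream of the starts and between genes. Of the 20 highest summits, 18 were upstream (90%, against 79.5% of all bound genes), and the median distance was 141 bp, against 145 bp. Within 100 bp of the start lay 3 of the 20 (15.0%), against 802 of all 2633 bound genes (30.5%). The exceptions to the upstream position were mRpL23, 56 bp downstream in its own 5' UTR, and mRpL42, at the start itself. The other large-subunit summits lay 96 to 244 bp upstream, and those of the small subunit 130 to 388 bp. By annotation, 16 of the 20 summits were between genes, 2 in the 5' UTR of the mRp gene, 1 in the 5' UTR of cg (at mRpS16) and 1 in an intron of AGO1 (at mRpL53), and 0 were in coding sequence. The annotation was counted for mRp genes only, so these counts have no share of all bound genes beside them.

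**Figure D3:**
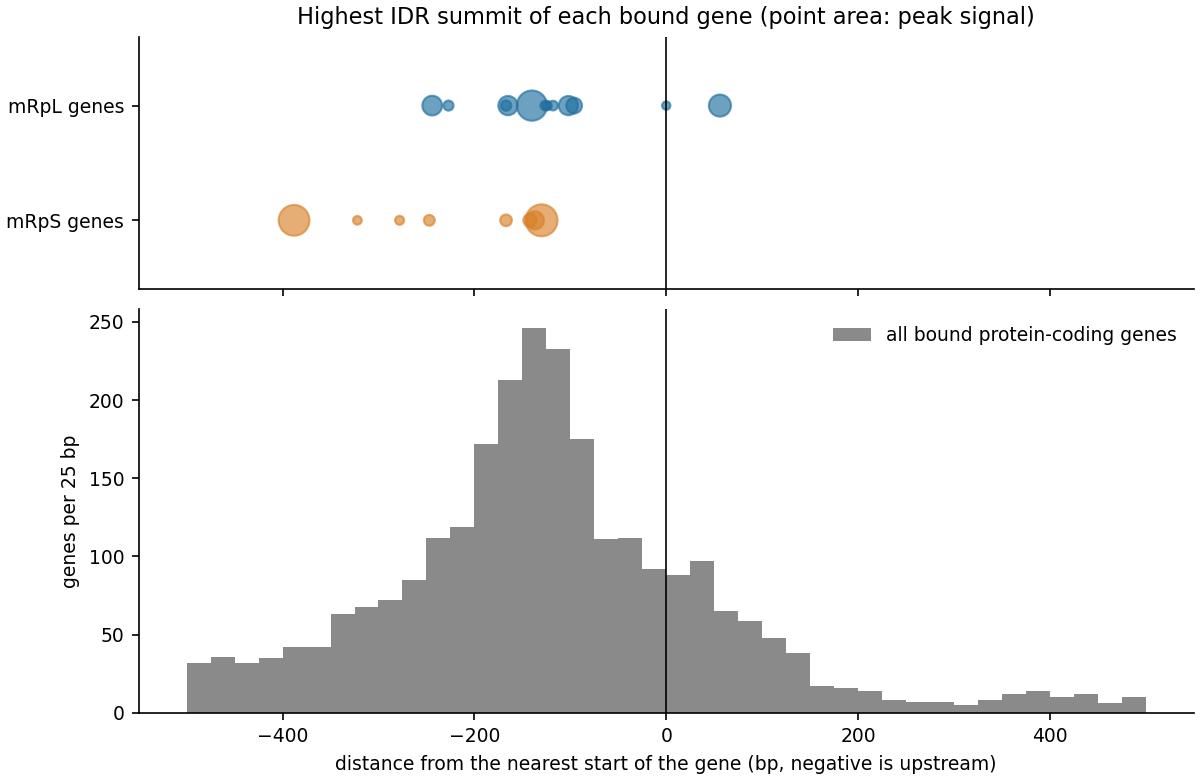
Distance of the highest IDR summit from the nearest start of its gene (horizontal axis, bp, negative is upstream). Upper panel: the 20 bound mRp genes by subunit, point area in proportion to peak signal; lower panel: number of all 2633 bound protein-coding genes per 25 bp. Summits of mRp genes gather upstream of the start, from 388 bp upstream (mRpS23) to 56 bp downstream (mRpL23), within the range where most of the other genes have theirs.

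Positions are given on dm6. The mRpS10 peak spans 15229348 to 15229729 on 3R, with its summit 130 bp upstream. The mRpS23 peak spans 13835280 to 13835667 on 2L and lies 388 bp upstream. The mRpL41 peak is at 15217578 to 15217925 on 2R, with the summit 140 bp upstream. On 3L, the peaks of mRpL23 (2373441 to 2373781) and mRpL20 (13017943 to 13018312) lie 56 bp downstream and 244 bp upstream. The mRpL24 peak is at 4945306 to 4945624 and the mRpS2 peak at 4850374 to 4850696, both on 2L, 102 and 137 bp upstream. Peaks with a second summit occurred at mRpL43 (2R, 23697696 to 23698203) and mRpL33 (X, 4322142 to 4322569). The weaker summit had a signal of 257 at mRpL43, 44 bp downstream of the start, and 280 at mRpL33, 295 bp upstream. The median width of the 20 peaks was 376 bp, against 309 bp for all IDR peaks.

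Promoter arrangement set the mRp genes apart from most genes before any binding was considered. A divergent promoter was defined as one with a protein-coding neighbour on the other strand whose start lay 0 to 500 bp upstream. Of the mRp genes 53 of 73 (72.6%) had one, against 3815 of 13945 genes (27.4%), and the median gap was 264 bp, against 244 bp. There were 0 pairs of mRp genes at 1 divergent promoter. Of the 20 bound mRp genes, 18 had a divergent promoter (90%), against 1228 of all 2633 bound genes. The 2 bound mRp genes without one were mRpL41 and mRpL19.

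How the bound share compared with all genes within a promoter class depended on the gap allowed between the starts. At 500 bp, among divergent promoters 18 of 53 mRp genes were bound (34%), against 32.2% of all genes in that class. Among other promoters 2 of 20 were bound (10%), against 13.9%. With a gap of up to 250 bp, 6 of 25 divergent mRp genes were bound (24%, against 29.0%) and 14 of 48 others (29.2%, against 17.2%), so the order of the classes among mRp genes turned round. With up to 1000 bp, 19 of 58 (32.8%, against 29.4%) and 1 of 15 (6.67%, against 12.9%) were bound. At 500 bp, applying the shares of all genes in each class to the 73 mRp genes gives 19.8 bound genes, where 20 were observed. At 250 bp the same sum gives 15.5 and at 1000 bp 19.0. In the pooled list at 500 bp it gives 38.0, where 38 were observed. In the replicates' strongest peaks the observed numbers were somewhat larger, 24 against 20.7 in replicate 1 and 23 against 20.2 in replicate 3. The part of promoter class in the larger share of mRp genes was not tested.

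**Figure D4:**
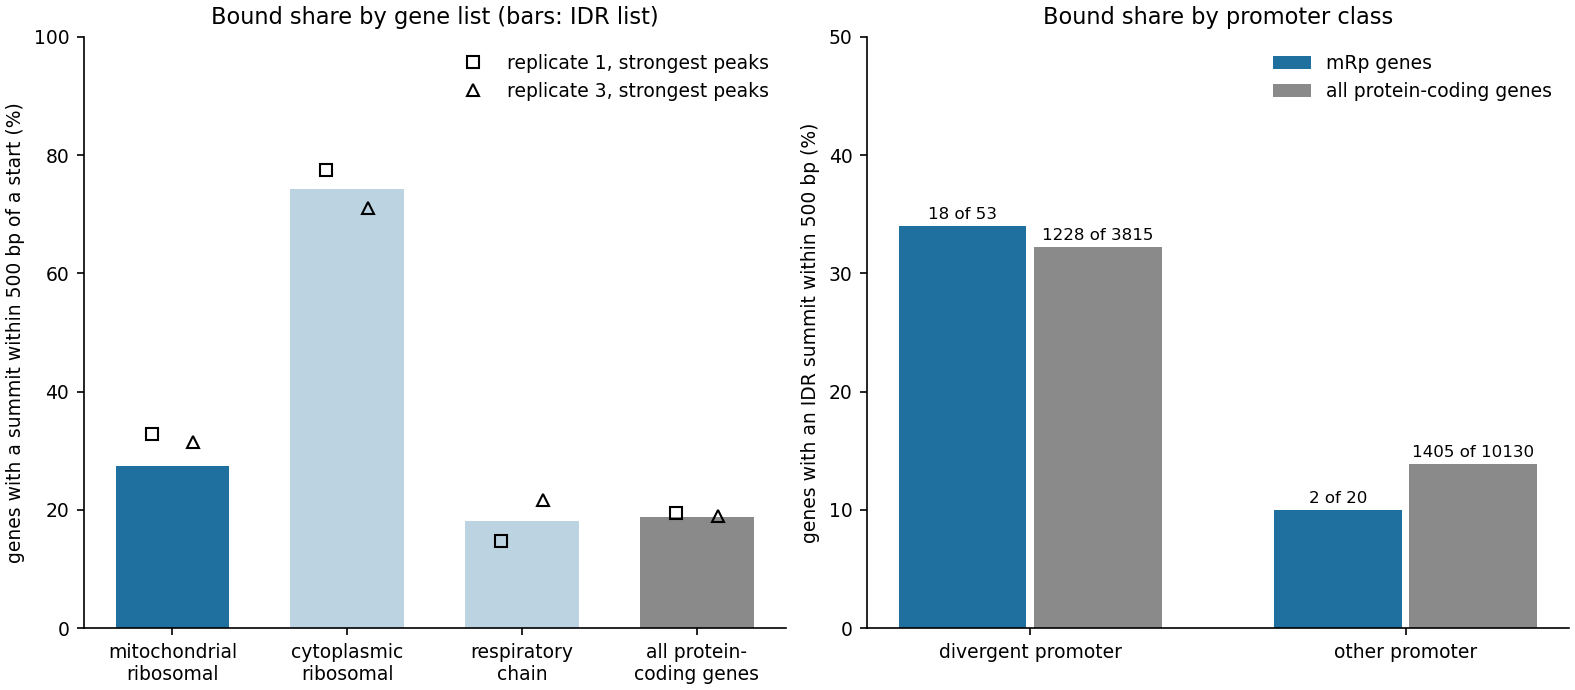
Left: share of genes with a summit within 500 bp of a start, for mRp genes, cytoplasmic ribosomal protein genes, respiratory chain genes and all protein-coding genes; bars are the IDR-thresholded list and open symbols each replicate's strongest peaks. Right: the share in the IDR list for divergent and other promoters, mRp genes beside all genes, with counts. The mRp bar (27.4%) lies above that of all genes (18.9%), while within the divergent class, at a gap of up to 500 bp, the values are 34% and 32.2%.

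At a divergent promoter a summit cannot be assigned to 1 of the 2 genes. Another gene's start lay within 500 bp of the summit at 18 of the 20 bound mRp genes, and at 10 of the 20 it was nearer than that of the mRp gene. Both counts were made for mRp genes only. The mRpS10 summit lay 130 bp from its start and 127 bp from that of Art3, an arginine methyltransferase gene, with 257 bp between the starts. The mRpS23 summit lay 388 bp from its own start and 104 bp from that of CenG1A, a gene for an Arf GTPase-activating protein. The mRpL20 summit was 155 bp from the start of Icmt, a protein methyltransferase gene, and 244 bp from that of mRpL20. By contrast the mRpS7 summit was nearer mRpS7 (167 bp) than Cdk1 (233 bp), the mitotic kinase gene, and the mRpL39 summit was nearer mRpL39 (118 bp) than the proteasome gene Prosbeta2 (167 bp). Of the 18 bound divergent mRp promoters the summit was nearer the mRp start in 8 (44.4%), against 55.1% for bound divergent promoters of all genes.

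The head-to-head partners of the bound mRp genes included the vesicle traffic gene Mon1 (at mRpS2), the geranylgeranyl transferase subunit gene betaggt-I (mRpL24), the phospholipase gene norpA (mRpL33), the dystroglycan gene Dg (mRpL34), the small RNA effector gene AGO1 (mRpL53) and Apc2, a Wnt pathway gene (mRpS24). The peak at mRpL41, with no other protein-coding start within 500 bp of its summit, and that at mRpL19 (301, rank 2816) were the 2 that could be placed at an mRp promoter alone by this measure.

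The number of annotated starts also differed. A single start was annotated for 67 of 73 mRp genes (91.8%), against 10246 of 13945 genes (73.5%), and more starts give a gene more chances of a nearby summit. Among genes with a single start 17 of 67 mRp genes were bound (25.4%), against 14.0%. With the outermost start alone, 20 of 73 mRp genes were bound (27.4%), against 16.4% of all genes. In that setting 17 of 51 divergent mRp genes (33.3%) and 3 of 22 others (13.6%) were bound, against 29.4% and 12.1%.

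Other genes of mitochondrial gene expression and both related gene groups were counted the same way. Their shares stand beside the 18.9% of all protein-coding genes. Among 16 mitochondrial translation genes 3 were bound (18.8%). These were GatC (312), GatA (198) and mEFG1 (204), where GatA and GatC are subunits of a tRNA amidotransferase and mEFG1 is an elongation factor. The ribosomal protein genes tko and bonsai, named outside the mRp scheme, were in that list and were not bound. Of 15 mitochondrial aminoacyl-tRNA synthetase genes 1 was bound (6.67%), SerRS-m (241). Of 15 mitochondrial DNA and RNA genes 4 were bound (26.7%). They were the RNA-degrading enzyme gene PNPase (2370, rank 18), mTerf5 (426), the single-stranded DNA-binding protein gene mtSSB (344) and PolG2 (312), which shares its peak with GatC.

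Respiratory chain genes, whose products work beside the proteins that the mitochondrial ribosome makes, were bound in 16 of 88 cases (18.2%, against 18.9% of all genes), with a median signal of 273.5 (18.2% ± 4.82 over the replicates, SD, n = 2). Cytoplasmic ribosomal protein genes were bound in 69 of 93 (74.2%), with a median of 399.6 (74.2% ± 4.56). The highest signal was 2838 in the mRp list, 1069 in the cytoplasmic list and 568 in the respiratory chain list. The mRp value belongs to the summit that mRpS10 shares with Art3. The summits also sat differently, at a median of 141 bp from the start in mRp genes, 40.0 bp in cytoplasmic ribosomal protein genes and 112 bp in respiratory chain genes. A divergent promoter was found in 72.6% of mRp genes, 39.8% of cytoplasmic ribosomal protein genes and 45.5% of respiratory chain genes. Differences between these lists were not tested.

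The Gcm consensus was found at 1 mRp summit, too few to say how its share compares with that of all promoter summits. Its 4 spellings (ATACGGGC, ATACGGGT, ATGCGGGC and ATGCGGGT) and the other words were looked for on either strand, up to 100 bp to each side of a summit. At the 22 distinct summits at mRp starts 1 had the consensus (4.55%), that of mRpL20 in the sequence above, against 4.48% of 2253 promoter summits and 9.76% of all IDR peaks. The 3 strongest mRp peaks lacked it. The DRE word TATCGATA, bound by the promoter factor DREF, was at 1 of 22 (4.55%, mRpL39), against 5.06% of promoter summits. The M1BP word GGTCACACT was at 0 of 22, against 2.62%.

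Among the other words at the 22 summits, TATAAA lay furthest from its share of promoter summits, and no difference was tested. GAGAG was at 7 (31.8%, against 27.6% of promoter summits), TATAAA at 11 (50%, against 34.4%), GATAAG at 3 (13.6%, against 11.4%) and the E-box word CAGCTG at 2 (9.09%, against 12.5%). The ETS word CCGGAAG and the NRF-1/Ewg word GCATGCGC were at 0 of 22, against 1.24% and 0.621%. A match is a run of letters and not a site, and absence says only that the letters are not in the window. At cytoplasmic ribosomal protein genes the DRE word was at 15 of 75 summits (20%) and the Gcm consensus at 0.

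Another word was frequent in mRp promoters. In the window from 250 bp before to 50 bp after the outermost start, the E-box word was found in 40 of 73 mRp promoters (54.8%), against 2467 of 13945 (17.7%). By promoter class it was in 29 of 53 divergent mRp promoters (54.7%, against 25.1% of all in the class) and 11 of 20 others (55.0%, against 14.9%). It was in 12 of 20 bound (60.0%) and 28 of 53 unbound mRp genes (52.8%). Stretches from 150 bp before to 50 bp after the start are given for the 3 highest bound genes with the word outside the right arm of chromosome 2, and for 1 gene with no summit in any list. They were chosen after the counts were seen, and capitals mark CAGCTG.
mRpL23 (chr3L:2373654-2373854, minus strand): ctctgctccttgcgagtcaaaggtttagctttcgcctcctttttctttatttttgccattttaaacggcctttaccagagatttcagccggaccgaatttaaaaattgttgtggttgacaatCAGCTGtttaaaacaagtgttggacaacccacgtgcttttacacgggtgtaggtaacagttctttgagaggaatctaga
mRpL24 (chr2L:4945311-4945511, minus strand): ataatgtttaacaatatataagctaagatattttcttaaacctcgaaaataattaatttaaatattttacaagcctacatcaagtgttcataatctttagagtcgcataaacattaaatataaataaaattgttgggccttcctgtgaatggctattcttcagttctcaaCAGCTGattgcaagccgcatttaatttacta
mRpS2 (chr2L:4850369-4850569, minus strand): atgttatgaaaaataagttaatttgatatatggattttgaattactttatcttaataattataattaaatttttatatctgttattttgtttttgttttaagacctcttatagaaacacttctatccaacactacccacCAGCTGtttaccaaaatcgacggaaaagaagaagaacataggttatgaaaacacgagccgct
mRpL11, no summit (chr3R:14511688-14511888, plus strand): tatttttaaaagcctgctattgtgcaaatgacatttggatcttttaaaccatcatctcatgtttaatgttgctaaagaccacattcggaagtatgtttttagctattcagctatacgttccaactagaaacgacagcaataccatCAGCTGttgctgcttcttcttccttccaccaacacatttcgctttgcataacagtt

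The word lay at the start of the gene, as in these examples. Of its 45 occurrences in mRp promoters 36 began within 50 bp of the start (80.0%), against 49.9% of 2784 occurrences in all promoters. The bin from the start to 25 bp downstream held 26.0 words per 100 mRp promoters, against 2.98 per 100 promoters of all genes. In the 12 bound mRp genes with the word in that window, the highest summit lay 105 to 344 bp from the nearest copy, with a median of 131 bp, and 0 of the 12 had it within 100 bp. The weaker summit of mRpL43 lay 14 bp from a copy. The 2 summits counted above with the word within 100 bp were this one and that of mRpL34. The word was in 8 of 16 mitochondrial translation genes (50%), 7 of 15 mitochondrial synthetase genes (46.7%) and 6 of 15 mitochondrial DNA and RNA genes (40.0%). It was in 23.9% of respiratory chain promoters and 9.68% of cytoplasmic ribosomal protein promoters.

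**Figure D5:**
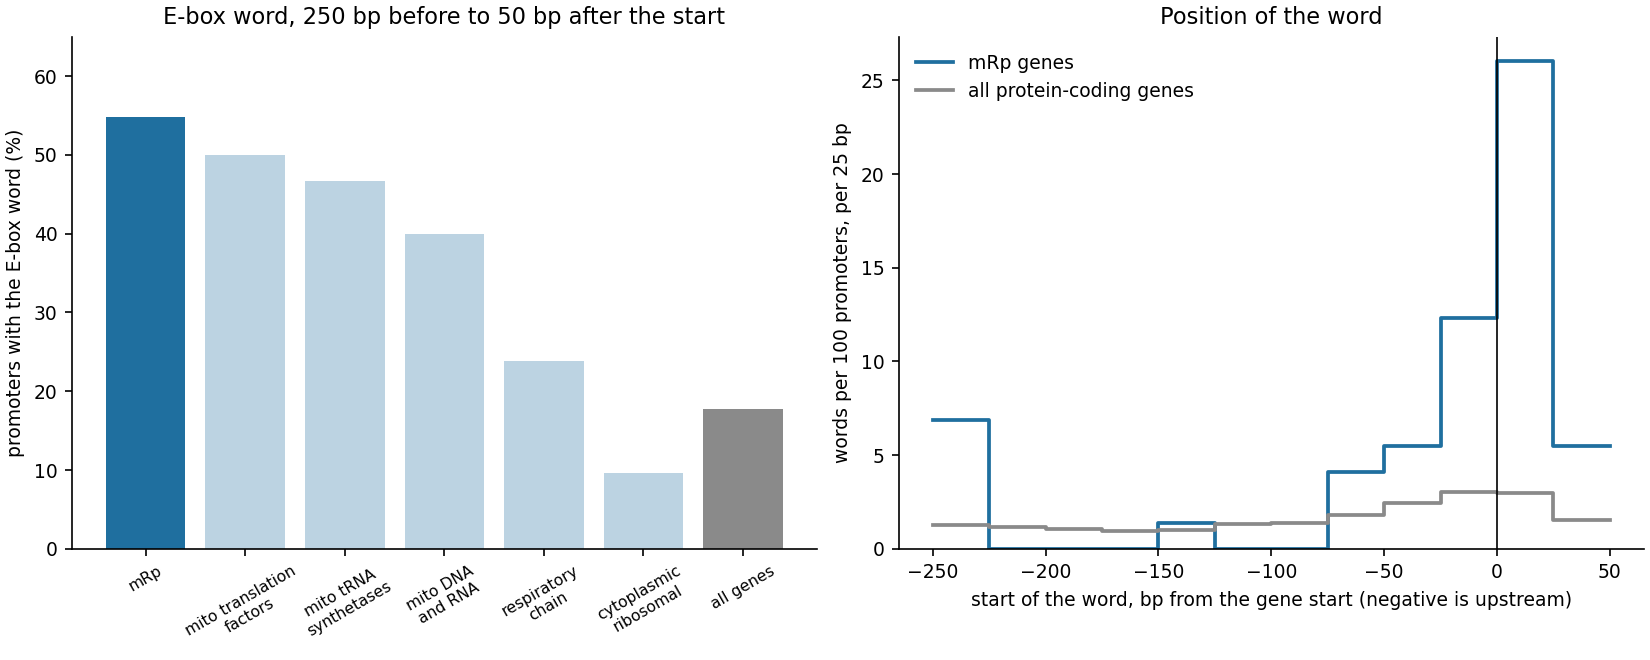
Left: share of promoters with the E-box word between 250 bp before and 50 bp after the outermost start, in mRp genes, other mitochondrial lists, respiratory chain genes, cytoplasmic ribosomal protein genes and all genes. Right: words per 100 promoters in bins of 25 bp by distance from the start (negative is upstream), mRp genes beside all genes. The mRp line peaks at 26.0 words per 100 promoters just after the start, where all genes have 2.98.

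The presence of a word in the promoter window was also set against binding. Of the 40 mRp promoters with the E-box word 12 were bound (30%), and of the 33 without it 8 (24.2%). The same shares over all genes were 24.1% and 17.8%. With the DRE word 5 of 15 mRp genes were bound (33.3%), and without it 15 of 58 (25.9%), against 29.4% and 17.8% over all genes. With the M1BP word 1 of 8 mRp genes was bound (12.5%), and without it 19 of 65 (29.2%), against 28.6% and 18.3% over all genes.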

How the data were processed

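The authors deposited 4 peak lists on dm6. The sources used here name no aligner, no caller and no IDR cut-off. Per the file descriptions deposited with the samples, each replicate's peaks came from its own alignments and the pooled peaks from both, against 1 shared control file. The signal of a peak is the value deposited by the authors, on a scale that differs between lists, so peaks were ranked inside each list. Depth is unknown because no totals are in these lists. The control file was not analysed here.

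Genes and starts came from Ensembl release 115 (BDGP 6.54) and bases from the Release 6 assembly, which shares dm6 coordinates. Every peak fell inside its arm. The deposited summit offset was added to the peak start and written 1-based. The highest summit within 500 bp of a start was taken for each gene, with Python 3.11.15, numpy 2.4.6 and pandas 2.3.3. Placement was tested on simulated data. With 1 group no test was run, and all genes stand as background. For the mitochondrial translation list 16 of 32 symbols matched, and for the mitochondrial DNA and RNA list 15 of 23.

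The members and lists were chosen with earlier results of these data known. Any mRp gene could be named, with fuller values for the 12 highest, those with the Gcm word or a second summit, and the 3 lowest bound. The positions of the E-box word, the class shares under other gaps, the single-start counts and the all-gene shares for peak overlap and peak height were added after seeing the data. Alternatives were the window, the list, each replicate alone, the outermost start, the divergent gap, the word window and peak overlap in place of the summit.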

Additional observations from a re-analysis of the deposited data

How the results depend on the processing

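In the settings where both were computed, the bound share of mRp genes stayed above that of all genes. For the bound share (27.4%), summits within 250 bp gave 23.3% (against 15.2% of all genes), within 1000 bp 28.8% (22.2%), the strongest 2853 peaks 17.8% (10.8%), the pooled list 52.1% and peaks that overlap the start 16.4% (11%). Each replicate alone gave 31.5% to 32.9%. For the median signal (442), 250 bp gave 503, 1000 bp 382, the strongest 2853 peaks 1032 and the pooled list 202.5, with 175 to 177 in the replicates, whose scale differs. For the median distance (141 bp), 250 bp gave 137 bp and the pooled list 130 bp, with 138 to 140 bp in the replicates. For the divergent share of bound mRp genes (90%), 250 bp gave 88.2%, 1000 bp 90.5%, the strongest 2853 peaks 84.6%, the pooled list 84.2%, the outermost start 85.0% and the replicates 87.0% to 87.5%. A divergent gap of up to 250 bp gave 30% and one of up to 1000 bp 95.0%. The Gcm consensus share of mRp summits (4.55%, 1 of 22) was 7.69% in the strongest 2853 peaks, 2.08% in the pooled list and 4.0% to 4.17% in the replicates. The DRE share (4.55%) was 0.0% in the strongest 2853 peaks and within 50 bp, 22.7% within 250 bp, 8.33% in the pooled list and 8.0% to 8.33% in the replicates. For these other settings no share of all promoter summits stands beside the word shares, and a wider window gives any summit more chance of a match. No paired analysis was possible because the samples form 1 group. The unknown read depth limits what a missing peak shows.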
